A study of Ovis aries and Mus musculus with 20 samples.

Results

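Edges between the active A and the inactive B compartment were located in the chromatin of the inguinal fat pad of the mouse (iWAT for inguinal white adipose tissue), which lies under the skin. An edge was called at the junction of 2 adjacent 20-kb bins where the A-B index changed sign in the same direction in both pools, with 5 bins of 1 sign on each side in both pools. The members were thus selected on the index itself, and by this rule 429 of the 123114 junctions between adjacent bins of the 19 autosomes were edges. Both Hi-C libraries were made from Kunming mice, adult females of 32 weeks, each library from a pool of 10 mice. No treatment was named, but the authors describe fasting of the animals, mice and sheep alike, before euthanasia. Formaldehyde-fixed fat was spun, the floating layer that holds adipocytes was lysed, and nuclear DNA was cut with MboI. The series also holds 9 Hi-C and 9 RNA-seq libraries of visceral fat of sheep, of which the Hi-C maps serve as a comparison. The sheep were small-tail Han females of 2 years. Kunming is an outbred stock, whereas the reference genome comes from another strain, and the lysed layer can hold cells other than adipocytes, so the index is an average over its cells. There is 1 mouse group of 2 pools, so values are compared with the background and between pools, and no p-value is given.

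Mammalian chromosomes fold into an A compartment of open, gene-rich and mostly transcribed chromatin and a B compartment of compact, gene-poor chromatin that often lies at the nuclear lamina. Within them, topologically associating domains (TADs) are stretches whose loci contact each other more than their neighbours, often closed off by CTCF and cohesin. The A-B index of a bin compares how often the bin meets the A parts and the B parts of its own chromosome, as a difference of medians of observed over expected contact, and is positive in A and negative in B. The bins that hold the starts of 10 adipocyte markers (Adipoq, Plin1, Cidec, Fabp4, Lep, Pparg, Lpl, Cd36, Lipe and Retn) all had a positive index in both pools. Their values ran from 0.342 at Cd36 in pool 2 to 8.14 at Lipe in pool 2. Of all protein-coding genes, 75.6% started in a bin that was positive in both pools, so a positive index at the markers does not identify the tissue. Mouse RNA was not analysed here.

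Some edges rested on bins whose index hardly varied. In 26 edges at least 1 of the 10 bins had no assembled base in GRCm39. In 11 others, at least 1 bin in assembled DNA was flat, meaning that its index was under 0.5 in size and within 0.005 of that of a neighbouring bin in both pools. The 884 flat bins in assembled DNA had a median absolute index of 0.0142 in pool 1 and 0.0150 in pool 2, against 3.36 and 3.05 in the 119049 bins kept. Whether these bins lacked contacts is not given in the sources used here. One such stretch lay between a pair of opposite edges at 69500000 and 69920000 on chromosome 14, where the A bin next to the second edge read 4.89 and 4.20 and the flat B bin beside it −0.00973 and −0.0113 in pools 1 and 2. These 37 edges had a median step of 2.26 and 1.96 in pools 1 and 2 and made up 8 of the 10 steepest of all 429, so they were left out. All values that follow are of the remaining 392 edges, 203 of which ran from A to B and 189 from B to A along the chromosome.

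For the 5 steepest edges, the 150 bases before the annotated start of the nearest protein-coding gene within 500 kb on each side are shown, read 5′ to 3′ on the gene's strand in GRCm39 with every CpG in capitals, to set A-side and B-side promoters beside each other. On chromosome 7, Pop4, which codes for a subunit of ribonuclease P, lay on the A side (chr7:37972029-37972178, minus strand) and the predicted gene Gm5591 on the B side (chr7:38227618-38227767, minus strand). On chromosome 4, the zinc finger gene Zfp933 lay on the A side (chr4:147932883-147933032, minus strand) and Zfp984 on the B side (chr4:147894328-147894477, minus strand). On chromosome 19, Osbp, which codes for an oxysterol-binding protein, lay on the A side (chr19:11942907-11943056, plus strand) and the olfactory receptor gene Or4d11 on the B side (chr19:12018682-12018831, minus strand). On chromosome 5, 1700001J03Rik lay on the A side (chr5:146122150-146122299, minus strand) and Gm6309 on the B side (chr5:146107532-146107681, minus strand). At the fifth edge, on chromosome 4, only the A side had such a gene, Cibar1 (chr4:12172032-12172181, minus strand).
Pop4: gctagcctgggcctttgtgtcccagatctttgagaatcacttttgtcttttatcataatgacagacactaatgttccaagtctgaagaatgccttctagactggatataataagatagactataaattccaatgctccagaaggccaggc
Gm5591: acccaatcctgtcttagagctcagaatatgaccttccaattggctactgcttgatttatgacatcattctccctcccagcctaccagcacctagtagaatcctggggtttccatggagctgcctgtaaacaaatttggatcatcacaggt
Zfp933: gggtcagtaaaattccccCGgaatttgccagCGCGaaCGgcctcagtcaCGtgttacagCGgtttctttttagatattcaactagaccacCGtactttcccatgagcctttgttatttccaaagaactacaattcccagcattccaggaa
Zfp984: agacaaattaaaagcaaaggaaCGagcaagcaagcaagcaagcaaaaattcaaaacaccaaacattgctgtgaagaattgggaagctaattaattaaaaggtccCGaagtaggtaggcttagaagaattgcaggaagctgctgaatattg
Osbp: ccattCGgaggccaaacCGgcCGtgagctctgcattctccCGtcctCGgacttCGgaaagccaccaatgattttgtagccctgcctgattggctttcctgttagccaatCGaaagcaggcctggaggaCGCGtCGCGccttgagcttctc
Or4d11: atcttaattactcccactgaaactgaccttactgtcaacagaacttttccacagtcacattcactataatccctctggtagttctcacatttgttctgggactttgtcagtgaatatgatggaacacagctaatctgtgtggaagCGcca
1700001J03Rik: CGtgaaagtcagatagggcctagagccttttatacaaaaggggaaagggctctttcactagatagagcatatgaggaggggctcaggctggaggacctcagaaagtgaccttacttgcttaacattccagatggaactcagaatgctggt
Gm6309: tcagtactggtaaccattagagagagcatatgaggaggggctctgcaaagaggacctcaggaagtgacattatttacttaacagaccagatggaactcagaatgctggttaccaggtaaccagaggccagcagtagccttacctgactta
Cibar1: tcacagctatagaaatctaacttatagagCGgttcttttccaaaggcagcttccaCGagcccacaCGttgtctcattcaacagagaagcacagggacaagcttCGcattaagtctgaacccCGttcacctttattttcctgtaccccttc

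In these 9 stretches the Osbp sequence held 11 CpG, the most of all, against 1 in the Or4d11 sequence across the edge. The Zfp933 sequence held 7 and that of Zfp984 2. Pop4 and Gm5591 had no CpG in the bases shown, so the steepest edge did not set a CpG-rich promoter against a poor one. The 1700001J03Rik and Gm6309 sequences held 1 and 0.

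Across all edges the same count was made in windows of 300 bases, from 250 before to 50 after the gene start. The 639 promoters within 100 kb of an edge on its A side held a median of 12 CpG (quartiles 5 and 20), and the 247 on the B side held a median of 3 (quartiles 1 and 6). The median over all 20621 protein-coding genes was 8. Promoters with 10 or more CpG made up 58.2% on the A side and 17% on the B side, with 46.5% over all genes. Without olfactory receptor, vomeronasal receptor and defensin genes, the B side kept 178 promoters with a median of 4.

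The steepest edge by the mean step of both pools, the index of the A bin at the junction minus that of the B bin, lay at 37980000 on chromosome 7. Its A bin, which holds the start of Pop4, read 3.01 and 2.88 in pools 1 and 2, and its B bin −2.31 and −1.82. The start of Pop4 lay 7.97 kb from the edge and that of Gm5591 248 kb from it, with no protein-coding start in the 5 bins on the B side. The second edge, at 147920000 on chromosome 4, cut an intron of Zfp933 and read 2.58 and 1.76 in the A bin against −3.10 and −2.55 in the B bin. The next bin on the B side, with the start of Zfp984, already read −7.12 and −7.35. The 5 bins on its A side also held the starts of Miip, Fv1 and Mfn2, a mitofusin. These steps, 5.32 and 4.70 at Pop4 and 5.69 and 4.31 at Zfp933, stood apart from the third, at 12000000 on chromosome 19, which was 2.92 and 2.65. There the A bin read 2.03 and 1.75 and the B bin −0.891 and −0.894, and the B side opened onto 6 olfactory receptor genes within 100 kb.

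**Figure D1:**
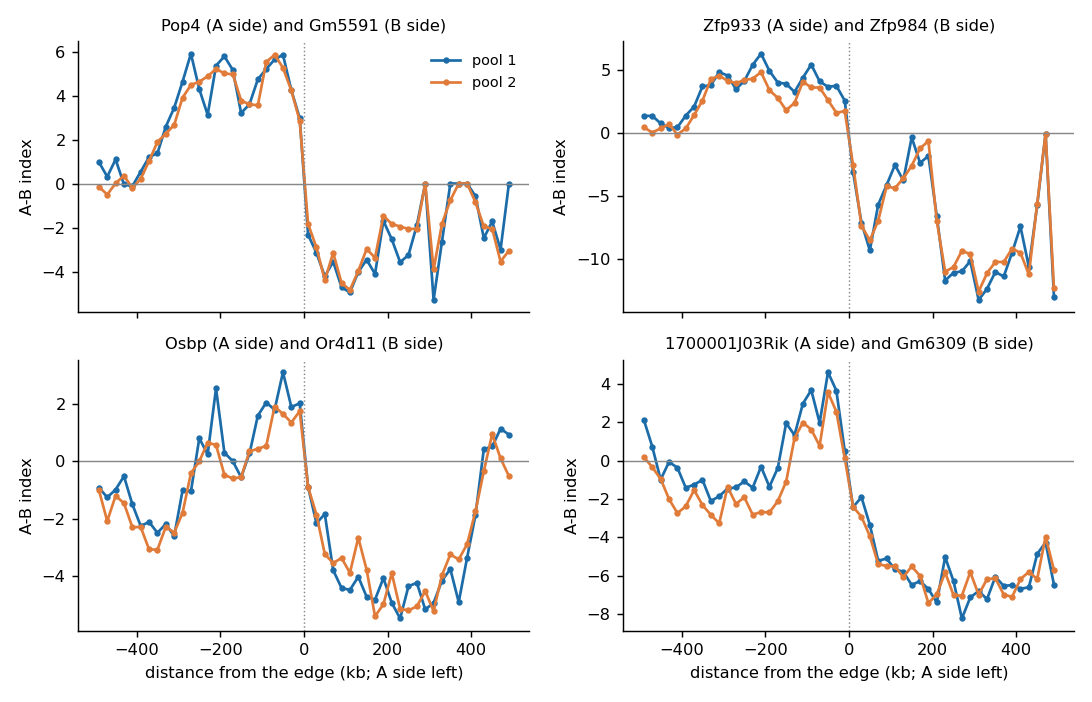
A-B index by 20-kb bin up to 490 kb on either side of the 4 steepest edges, with the A side on the left at negative distance, in pool 1 (blue) and pool 2 (orange), and the nearest genes in each title. Both pools crossed 0 at the same junction in all 4 panels, with steps of 5.32 and 4.70 at Pop4, 5.69 and 4.31 at Zfp933, 2.92 and 2.65 at Osbp and 2.92 and 2.54 at 1700001J03Rik. Isolated values close to 0 in the upper panels lie outside the 10 bins of the edge.

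The other edges of the 10 steepest had mean steps between 2.502 and 2.726. The fourth cut an exon of 1700001J03Rik on chromosome 5 (0.499 and 0.126 in the A bin, −2.42 and −2.41 in the B bin). The fifth lay 7.97 kb from the start of Cibar1, which codes for a BAR-domain protein of cilia. Jrkl stood 25.8 kb to the A side of the sixth, at 13220000 on chromosome 9, whose junction was itself a TAD end. At the seventh, at 26000000 on chromosome 15, Zfp622 lay 15.6 kb away on the A side and Marchf11, a membrane-bound ubiquitin ligase, 309 kb away on the B side. The eighth ran through the olfactory receptor cluster of chromosome 7, in an intron of Or52h2 on the A side and 7.40 kb from Or52h1 on the B side, so members of 1 family fell on both sides of it. At the ninth, Got2, a mitochondrial aspartate aminotransferase, lay 44.8 kb away on the A side and no start lay within 500 kb on the B side. The tenth, at 103440000 on chromosome 15, fell in an exon of Ppp1r1a, an inhibitor of protein phosphatase 1 that starts 6.45 kb to the B side, with Pde1b, a calmodulin-dependent phosphodiesterase, starting 28.7 kb to the A side.

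Most edges were gentler. The step had a median of 1.18 in pool 1 and 1.06 in pool 2, with 10th and 90th percentiles of 0.477 and 2.14 in pool 1 and 0.492 and 1.87 in pool 2. The median absolute step over all junctions between bins kept was 0.376 in pool 1 and 0.368 in pool 2, but an edge needs a change of sign, so the larger step at edges follows from how they were selected. The means of the 5 bins on each side differed by a median of 3.21 in pool 1 and 2.79 in pool 2. The step at the junction thus held a median of 37.2% and 38.8% of that difference, and the rest of the transition was spread over the neighbouring bins.

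**Figure D2:**
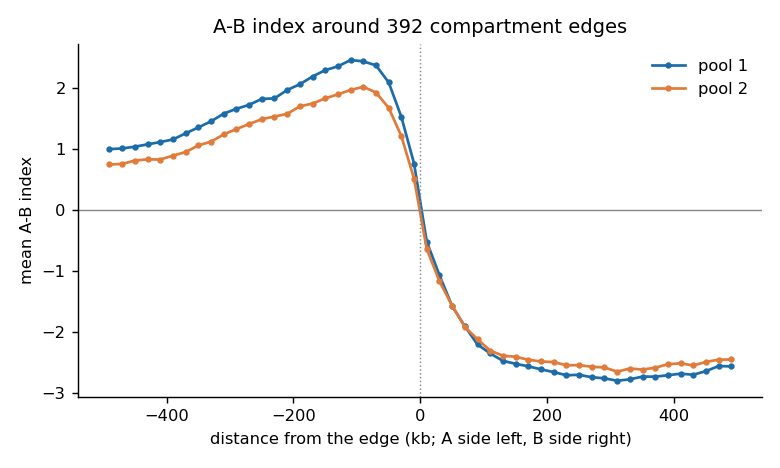
Mean A-B index over 392 edges by distance from the edge in kb, A side on the left, in pool 1 (blue) and pool 2 (orange). On the A side the mean was highest about 100 kb from the edge (2.46 in pool 1, 2.02 in pool 2) and was 0.9996 and 0.748 at 490 kb, whereas on the B side it levelled off beyond about 100 kb, at −2.35 and −2.30 in the sixth bin and −2.56 and −2.45 at 490 kb.

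The sides of an edge were not mirror images. In the bin next to the edge the mean index was 0.763 in pool 1 and 0.515 in pool 2 on the A side, and −0.516 and −0.637 on the B side. At 90 kb it was 2.44 and 2.02 on the A side and −2.20 and −2.11 on the B side. Farther out the A side came back towards 0. The B side changed less, from −2.79 and −2.64 at 310 kb to −2.56 and −2.45 at 490 kb. The rule fixes the sign of 5 bins only, so at larger distances the mean can include bins past the next edge. Unbroken A domains were shorter than unbroken B domains, and the part of domain length in this difference was not tested.

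**Figure D3:**
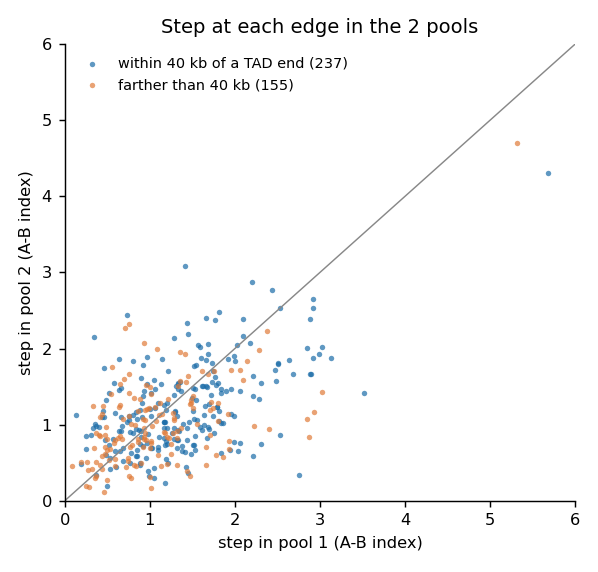
Step at each of 392 edges in pool 1 (x axis) against pool 2 (y axis), in units of the A-B index, blue for the 237 edges within 40 kb of a TAD end and orange for the 155 farther away, with the line of equal steps. The points scatter widely about the line (Pearson correlation 0.547 across edges), and the edges at Pop4 and Zfp933 lie far above the rest in both pools.

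The pools agreed on the level of the sides better than on the step. Across the 392 edges, which share chromosomes and libraries, the 5-bin difference of pool 1 and that of pool 2 had a Pearson correlation of 0.958, and the step one of 0.547. The step was larger in pool 1 at 227 edges. The steps of the pools differed by a median of 0.392 and by more than 1 index unit at 42 edges. Of the 40 steepest edges in pool 1, 16 were among the 40 steepest in pool 2, so ranks below the first few edges were not stable between pools.

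A value outside the rule was had by calling edges in a single pool and reading the other. Pool 1 alone gave 1143 edges between bins kept and pool 2 alone 1078. At edges called in pool 1, the 5-bin difference had the same direction in pool 2 at 1141 of 1143, with a median of 2.29 in pool 2 and 2.64 in pool 1. At edges called in pool 2, it had the same direction in pool 1 at 1077 of 1078, with a median of 2.57 in pool 1 and 2.45 in pool 2. The exact bin was less repeatable. Only 392 edges lay at the same junction in both pools, 747 lay within 1 bin of each other, and 831 within 2 bins. Where the edge of pool 2 was displaced, it lay on the A side of that of pool 1 in 375 cases and on its B side in 84. The median index of all bins kept was −0.406 in pool 1 and −0.589 in pool 2, and its part in this displacement was not tested.

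The index changed sign at 4391 junctions in pool 1 and at 4716 in pool 2, and at 1314 in the same direction in both. Of those, 690 had a single bin of the required signs on their shorter flank. Just outside the rule, 41 had exactly 4 such bins, with a median step of 1.055 and 39.02% within 40 kb of a TAD end. Just inside it, 27 had exactly 5, with a median step of 1.19 and 44.4% within 40 kb. At exactly 6 there were 35, with a median step of 1.08 and 25.7% within 40 kb. These small groups thus showed no steady rise with the length of the flank.

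Edges lay close to the ends of TADs, which were called from the insulation of the merged map and not from the index. Of 392 edges, 237 (60.5%, 95% Wilson interval 55.5% to 65.2%) lay within 40 kb of a TAD end, against 14.9% of all junctions. For 94 edges (24.0%) the junction was itself a TAD end, against 4.92% of all junctions, and the median distance was 40 kb for edges and 200 kb for all junctions. The share at edges was above the share of all junctions on 19 of 19 chromosomes, from 40% on chromosome 5 to 91.7% on chromosome 13. TAD ends were more frequent within A than within B. Among junctions with 5 bins of the same compartment on each side, 18.3% of those inside A and 5.74% of those inside B lay within 40 kb of one, so the share at edges was higher than in either interior. Edges and TADs come from the same 2 libraries, and the intervals cover counting error only.

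**Figure D4:**
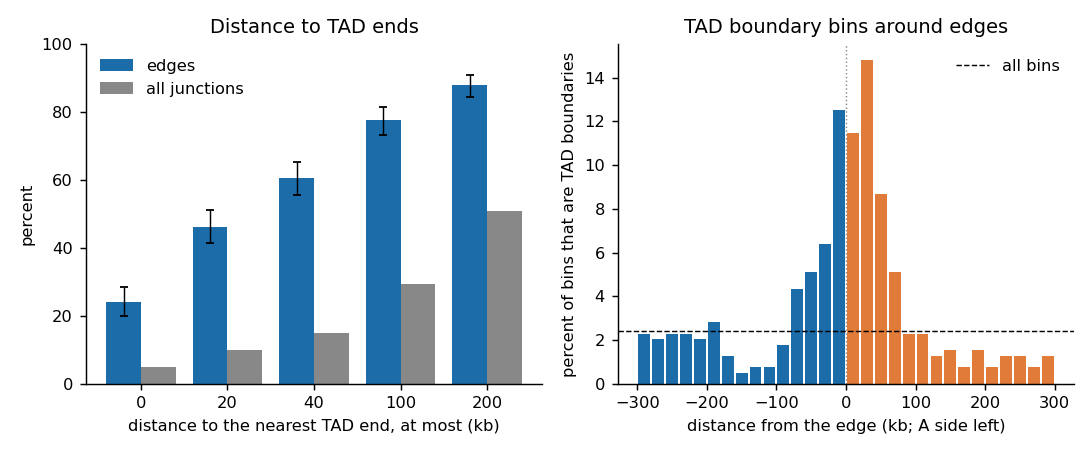
Left, percent of 392 edges (blue, with 95% Wilson intervals) and of all junctions (grey) within 0, 20, 40, 100 and 200 kb of the nearest TAD end. Right, percent of bins that were the single boundary bin between a pair of TADs, by distance from the edge with the A side on the left, against 2.41% of all bins kept (dashed). Edges were at 60.5% and all junctions at 14.9% within 40 kb, and boundary bins peaked at 14.8% in the second bin on the B side.

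Boundaries sat slightly towards B. TADs of this map are mostly separated by a single boundary bin (2913 such bins between 2979 TADs). Within 5 bins of the edges, 118 boundary bins lay on the A side and 166 on the B side. The bins next to the edge were boundaries at 12.5% of edges on the A side and 11.5% on the B side, and the second bins at 6.38% and 14.8%. Between 110 and 170 kb from the edge, 0.510% to 1.28% of bins were boundaries on the A side and 0.765% to 2.30% on the B side, below the 2.41% over all bins. At 231 edges a boundary bin lay among the 3 bins on either side. At those the TAD on the A side had a median length of 500 kb and that on the B side 840 kb, and the B-side TAD was the longer at 172 edges and the A-side TAD at 57. Conversely, 7.93% of the boundary bins had an edge within 40 kb.

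The share near TAD ends was higher in groups of steeper edges. In 4 equal groups of 98 edges ordered by mean step, 44.9%, 56.1%, 66.3% and 74.5% lay within 40 kb of a TAD end, from the gentlest to the steepest. The median step was 1.33 in pool 1 and 1.12 in pool 2 for edges within 40 kb, and 0.961 and 0.916 for those farther away. The edges farthest from any TAD end were few. Over 500 kb away lay 12 edges, against 22.0% of all junctions, and the largest distance was 1140 kb.

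Gene starts were denser on the A side. The 5 bins on the A side held 0.332 protein-coding starts per bin and those on the B side 0.127, with 0.293 over all A bins and 0.0704 over all B bins. The density thus reached that of the whole A compartment within 100 kb of the edge, while the B side was richer than the B compartment as a whole. The A side held more starts at 250 edges, the B side at 39, and both held the same number at 103. The mean difference favoured the A side on 19 of 19 chromosomes, from 0.0800 starts per bin on chromosome 7 upwards to 0.413. The authors had named A and B on each chromosome by gene density, so this direction is not independent of how the compartments were named. At least 1 start lay on the A side of 324 edges (82.7%) and on the B side of 151 (38.5%), and 51 edges had none on either side. The nearest start was a median of 38.4 kb away on the A side and 186 kb away on the B side.

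**Figure D5:**
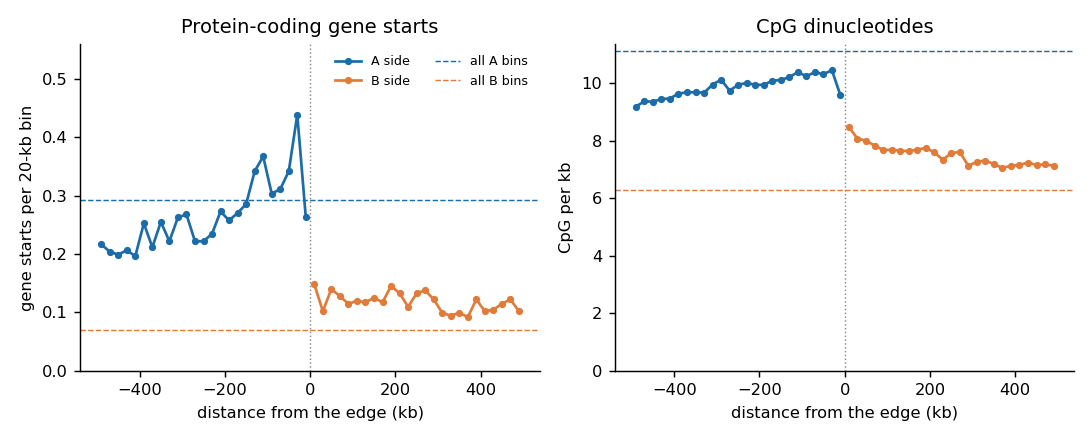
Protein-coding gene starts per 20-kb bin (left) and CpG per kb (right) by distance from 392 edges, A side (blue) at negative distance and B side (orange), with the means of all A bins and all B bins dashed. Starts were at 0.263 in the first A bin, 0.439 in the second and 0.148 in the first B bin, and CpG density was 9.58 per kb in the first A bin and 8.47 per kb in the first B bin.

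The highest density was not at the edge itself. The first bin on the A side held 0.263 starts, the second 0.439 and the third 0.342, and the first on the B side 0.148. The second A bin had a start at 36.0% of edges, against 14.1% of all bins kept. Of the nearest genes, 208 of 392 on the A side and 200 of 391 on the B side were transcribed away from the edge.

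Base composition also differed between the sides. GC content averaged 43.1% in the 5 bins on the A side and 42.0% on the B side, between 44.8% in all A bins and 39.5% in all B bins. It was higher on the A side at 291 edges and on the B side at 101, and by chromosome mean on 18 of 19, chromosome 9 being the exception with a difference of −0.0806 percentage points. CpG were at 10.2 per kb on the A side and 8.01 on the B side, with 11.1 in all A bins and 6.29 in all B bins. CpG density was higher on the A side at 341 edges and on 19 of 19 chromosomes. The counts by chromosome share the limit given for gene starts, since gene density set which compartment was named A. At the junction itself the contrast in GC was smaller, 43.0% in the first A bin against 42.5% in the first B bin.

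The core of the CTCF motif, searched as AGNNGGCGC on both strands with no other motif, was counted as a sequence feature of TAD ends. It occurred 0.643 times per bin on the A side and 0.492 on the B side, between 0.741 in all A bins and 0.335 in all B bins. Bins with at least 1 match made up 41.8% on the A side and 33.2% on the B side, with 34.1% over all bins kept. The A side had more matches at 202 edges, the B side at 128, and by chromosome mean the A side was higher on 17 of 19. Matches were thus no denser on the A side of edges than in A as a whole, while the B side was denser than B as a whole. The matches within 5 kb of one of the 10 steepest edges are shown with the 9 letters in capitals and 16 bases on each side, 5′ to 3′ on the strand of the match, as examples of what was counted. They were beside the fourth edge (chr5:146117585-146117625, minus strand, B side), the seventh (chr15:26004953-26004993, minus strand, B side) and the tenth (chr15:103438963-103439003, plus strand, A side).
edge in 1700001J03Rik: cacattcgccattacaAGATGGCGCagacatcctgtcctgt
edge beside Zfp622: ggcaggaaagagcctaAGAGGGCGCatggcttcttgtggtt
edge in Ppp1r1a: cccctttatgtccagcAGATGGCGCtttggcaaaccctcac
The last lay 1.02 kb from its edge. A match to these letters is not a bound site.

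Of the 20621 protein-coding genes, 886 (4.3%) started within 100 kb of an edge, 639 (72.1%) on the A side and 247 on the B side. Clustered sensory receptor genes at edges fell mostly on the B side. The compartment of the other members of these families was not analysed here, so the split may not be particular to edges. Of 1186 olfactory receptor genes, which code for odorant receptors of the nose, 58 (4.89%) were at edges, 8 on the A side and 50 on the B side, at 16 edges. Or2bd2 started 1.69 kb inside B on chromosome 7, where its bin read −0.766 and −0.127 in pools 1 and 2. Or5c1 on chromosome 2 (−1.40 and −1.04) and Or5k1b on chromosome 16 (−0.505 and −0.741) also started less than 4 kb from their edges on the B side, and Or2b2 on chromosome 13 (1.19 and 0.952) on the A side. Vomeronasal receptor genes, which serve pheromone detection, had 14 of 351 (3.99%) at edges, 2 on the A side and 12 on the B side. The nearest were Vmn1r40 (−1.18 and −0.478), Vmn1r4 (1.26 and 1.28), Vmn1r56 (−0.324 and −0.744) and Vmn1r5 (−1.98 and −2.41), and Vmn1r4 and Vmn1r5 faced each other across 1 edge of chromosome 6. All 7 of 72 defensin genes (9.72%) at edges were on the B side of 2 edges of chromosome 8, among them the epithelial antimicrobial peptide genes Defb40, Defb37, Defb38 and Defb13, with −1.39 to −2.99 in pool 1 and −1.51 to −3.28 in pool 2.

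Zinc finger and solute carrier genes were divided between the sides much as all genes at edges, 72.1% of which lay on the A side. Of 484 zinc finger genes, 25 (5.17%) were at edges, 19 on the A side and 6 on the B side. Zkscan2 started 0.142 kb from its edge on chromosome 7 (1.16 and 0.881), followed by Zkscan8 on chromosome 13 (0.467 and 0.409), Zfp51 on chromosome 17 (0.373 and 0.638) and Zfp933, each on the A side. Of 380 solute carrier genes, 20 (5.26%) were at edges, each at an edge of its own, 16 on the A side and 4 on the B side. The nearest were the organic anion transporter gene Slco1a5 (0.407 and 0.488), the glucose transporter gene Slc2a12 (1.01 and 0.0564), Slc44a5 (2.42 and 1.95) and Slc39a11 (1.63 and 0.933). The shares of olfactory receptor, vomeronasal receptor, zinc finger and solute carrier genes at edges, 3.99% to 5.26%, were close to the 4.3% of all genes. At 6440000 on chromosome 7, 3 zinc finger genes on the A side faced 7 olfactory receptor genes on the B side. Neither cadherin nor protocadherin genes had a start at an edge (0 of 23 and 0 of 69), and keratin genes had 2 of 168 (1.19%). The other families counted were nearer the share of all genes. Serpin genes were at 4.84%, potassium channel genes at 4.35% and ribosomal protein genes at 4.30%. Cytochrome P450 genes were at 2.97% and GABA and glutamate receptor genes at 2.86%. With so few members at edges, these shares do not show a depletion of any family. Members of 1 cluster share their edge, so they are not independent.

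The share of fat biology genes at edges was near that of all genes. The 116 list genes were for lipid storage, adipogenesis, adipokines, thermogenesis, insulin signalling, progenitors and matrix, and the clock. Of these, 6 (5.17%) started within 100 kb of an edge, beside 4.3% of all genes. In all, 109 of the 116 started in a bin that was A in both pools, as did 75.6% of all protein-coding genes. None of the 29 lipid and droplet genes, the 15 thermogenic genes or the 12 clock genes was at an edge. Of the 6 at edges, 5 were on the A side. Cebpd, an early adipogenic transcription factor, started 65.2 kb inside A on chromosome 16 (1.77 and 2.12 in pools 1 and 2). Pik3ca, the catalytic subunit of the kinase downstream of the insulin receptor, started 91.8 kb inside A on chromosome 3 (5.51 and 4.22). Retn, which codes for resistin, started 74.7 kb inside A on chromosome 8 (4.72 and 3.93).

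Sparc, a matrix glycoprotein, started 85.9 kb inside A on chromosome 11 (3.20 and 3.63). Sfrp5, a secreted inhibitor of Wnt signalling, started 69.3 kb inside A on chromosome 19, where the pools were farther apart (2.05 and 0.235). Rbp4, the plasma carrier of retinol that adipocytes also secrete, was the exception. It started 33.7 kb inside B on chromosome 19, with −1.22 in pool 1 and −1.39 in pool 2, beside an edge at 38080000 with steps of 0.640 and 1.24. Its edge lay 140 kb from the nearest TAD end, while the edges of the other 5 lay 0 to 40 kb from one. Of the 13 adipokine genes found in the annotation, Rbp4, Sfrp5 and Retn were at edges.

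The share of edges inside protein-coding genes was below that of all junctions, and for genes under 100 kb it was close to it. Of 392 edges, 137 (34.9%, 95% Wilson interval 30.4% to 39.8%) cut a protein-coding gene, against 42.6% of all junctions, with 60.5% of junctions inside A and 27.8% of those inside B. For genes under 100 kb the share was 19.4% at edges and 17.5% at all junctions. There were 141 pairs of a gene and an edge, 124 with the edge in an intron and 17 with it in an exon. The share of introns over all junctions inside genes was not computed, so these counts are a description only. The gene started on the A side in 78 pairs and on the B side in 63. Among the 33 genes of 200 kb or more, 12 started on the A side.

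The 10 longest genes cut by an edge spanned 488 to 2245 kb. Cntnap2, a neurexin-like adhesion protein gene of 2245 kb on chromosome 6, started at −4.89 and −5.09 in pools 1 and 2 and met its edge in an intron 161 kb before its end. The A bin at that edge read only 0.0075 and 0.0065, close to the size of flat bins though not flat by the filter, so its exact position is uncertain. Zfhx3, a homeobox transcription factor gene of 1019 kb, met an edge 8.28 kb before its end with its start towards the A side of that edge, yet the start itself read −2.19 and −2.19. Epha6, an ephrin receptor gene of 952 kb, started at −5.35 and −5.05 and met its edge 6.11 kb before its end. Dlgap1, a postsynaptic scaffold gene of 852.5 kb, started at −6.06 and −5.69, and its edge in an intron was also a TAD end.

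Of the other 6, the overlapping Iqschfp (734 kb) and Schip1 (562 kb) share 1 edge, and Grip1 (633 kb), Csmd2 (580 kb) and Kirrel3 (554 kb) each started on the B side with an index between −2.26 and −3.99 in both pools. Utrn, which codes for the dystrophin relative utrophin and spans 488 kb of chromosome 10, started on the A side at 4.78 and 3.35, and its edge lay 2.44 kb before its end. In all 10 the edge fell in an intron, again with no background share. In 8 of the 10 the start lay towards the B side of the edge and the end towards the A side.

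Edges were spread over the genome unevenly. There were 10 to 39 per chromosome, from 1.37 per 1000 junctions on chromosome 5 to 4.89 on chromosome 10. Some neighbouring edges enclosed a domain of 1 sign in both pools throughout. Such unbroken A domains (49) had a median length of 400 kb (100 to 9740 kb) and unbroken B domains (32) a median of 1000 kb (160 to 13240 kb). They held 16.4 protein-coding starts per Mb in A and 2.24 in B. These lengths follow from where the rule could be met, since a domain with a single bin of unlike sign was not counted.

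The sheep maps came from fat of the greater omentum (GOM), of the mesentery (MAD) and of the retroperitoneum (RAD), with 3 libraries of 2-year-old small-tail Han sheep per depot. The labels number the sheep 1 to 3 in each depot, so the depots share animals and are not independent of each other. The same rule with flat bins left out gave 124, 139 and 108 edges in GOM, MAD and RAD. Mouse iWAT had 3.30 edges per 1000 junctions and the sheep depots 0.938, 1.05 and 0.817 in GOM, MAD and RAD, but 3 libraries had to share the edge in sheep and 2 in mouse. With any pair of libraries, the sheep depots gave 235 to 299 edges, fewer than the 392 of mouse iWAT from 2. The sheep maps had more junctions, 132157 to 132236 with 3 libraries, against 118860 in mouse. Edges lay within 40 kb of a TAD end in 60.5% of cases in mouse, against 65.3% (56.6% to 73.1%) in GOM, 64.0% (55.8% to 71.5%) in MAD and 63.0% (53.6% to 71.5%) in RAD. The share over all junctions was 14.9% in mouse, and among sheep depots 20% for GOM, 18.9% for MAD and 19% for RAD. The intervals of the shares at edges overlapped, and species, age, depot, breed and pooling cannot be told apart.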

How the data were processed

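In situ Hi-C libraries of 2 pools of mouse iWAT were used, with pool numbers taken from the sample titles. The authors deposited a compartment score with a sign, named A-B index, for every 20-kb bin of GRCm39 and every library, not rescaled between libraries. The A and B parts of each chromosome that it refers to had come from a principal component analysis of 100-kb maps, with the sign set by gene density. TADs were deposited as positions, called by insulation on the merged map of both pools. Read depth of the tables was not analysed here, so precision is the spread between pools. The column of start positions of the deposited tables counts from 0, and positions are printed from 1 or as the last base before an edge. A value of the deposited tables in a bin that was flat (within 0.005 of a neighbouring bin in both pools and under 0.5 in size) or without assembled bases was left out, a filter chosen after seeing the data.

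Gene starts and sequences were taken from GENCODE M39 and GRCm39, and genes were counted at their outermost annotated start. Edges were called and compared with all junctions, and the calling of edges and flat bins was tested on simulated profiles, with pandas 2.3.3, scipy 1.17.1 and numpy 2.4.6 under Python 3.11.15, and figures were drawn with matplotlib 3.10.9. Shares have 95% Wilson intervals. Named genes were the nearest within 500 kb on each side of the 10 steepest edges, adipose list genes within 100 kb of an edge, the 10 longest genes that cross one, and up to 4 nearest members of families with 5 or more genes at edges. Edges were called over all bins, and those that touched flat or unassembled bins were then left out. Genes were named from the edges that remained, and Miip, Fv1 and Mfn2 were named after their values were seen. The members and lists were chosen with earlier results of these data known. Sheep RNA-seq tables were not used here.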

Additional observations from a re-analysis of the deposited data

How the results depend on the processing

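Calling edges in pool 1 alone or in pool 2 alone (each with the other left out) gave 1132 to 1205 edges by the rule, against 429 in both. Over the 1078 and 1143 of these with no flat or unassembled bin, set beside the 392 in both pools, the median step was 0.949 to 1.01 (1.12 in both), the share within 40 kb of a TAD end 50.6% to 52.0% (60.5%), the excess of gene starts per bin on the A side 0.169 to 0.170 (0.205) and the GC difference 0.839 to 0.951 percentage points (1.11). The share that cut a gene stayed within its interval, at 35.8% to 37.5%. The mean index of both pools gave 1291 edges, and 10 bins on each side gave 277, while 3 bins (561) and centring by chromosome (455) stayed within 1.5 times. The share within 40 kb of a TAD end was 55.3% with 3 bins, 69.5% with 10 bins and 66.2% for the 257 edges 1 Mb or more from any other. It was 46.2% within 20 kb and 77.6% within 100 kb, where all junctions were at 9.93% and 29.5%. The step was 3.00 between means of 5 bins and 0.311 in units of the SD of the index. The A-side excess of starts was 0.218 over 3 bins, 0.192 over 10 bins, 0.308 for all annotated genes, 0.481 by overlap of gene bodies, 0.226 without receptor and zinc finger families, and 0.186 with the flat edges kept. Edges cut any annotated gene in 55.1% of cases (59.9% of junctions) and a protein-coding gene under 100 kb in 19.4% (17.5% of junctions). For the shorter genes the share at edges was thus close to that of all junctions, and no interval was computed for either alternative. The GC difference at the junction bins alone was 0.456. In sheep, leaving out 1 library gave 239 to 273 edges in GOM, 276 to 299 in MAD and 235 to 280 in RAD. The alternatives on flat edges, isolated edges and gene families were chosen after seeing the data. The A-side excess of starts and the GC difference kept their sign in all alternatives run on them. The step is positive by the rule, so its sign could not change. No paired analysis was possible because the mouse pools form 1 group and no result comes from a test, the sheep depots, which share animals, included. The merged TAD list has no replicates, and positions are limited to 20 kb.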
